A study of Mus musculus with 12 samples.

Results

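Heat-shock and chaperonin genes were taken from m6A peak lists of a mouse microglial cell line by their deposited gene names. The rule took names beginning with Hspa, Hspb, Hspd, Hspe, Hsph or Hsp90, numbered Dnaja, Dnajb and Dnajc genes, Cct2 to Cct8, and Bag1 to Bag6, and left out Hspa5, Dnajb9 and pseudogene names. It found 71 genes with a peak in at least 1 list, of 14078 genes in all, and 69 of these had a peak in both lists, of 12323. They carried 261 of 41153 peaks in the Mettl3 knockout (KO) list and 219 of 36682 peaks in the wild-type (WT) list. The rule used no measured value, and it also took genes by name that are no chaperone (Hspb11 and Hspbap1) or an HSP70 exchange factor outside the BAG family (Hspbp1).

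The study immunoprecipitated fragmented poly(A) RNA of BV2, a mouse microglial cell line, with an antibody to N6-methyladenosine (m6A) and sequenced this pull-down (IP) beside the unprecipitated input. The 12 libraries formed 4 groups of 3 replicates, KO IP, KO input, WT IP and WT input, and the titles of all of them, WT included, carry LPS (bacterial lipopolysaccharide) with no dose or time. How the knockout was made and whether the KO cells are 1 clone are not given in the labels, and their protocol text speaks of neuroblastoma cells where the sample labels name BV2. Peaks named 9 of 10 microglial markers in each list, P2ry12 in neither, against 1 of 8 neuroblastoma or neuron markers (Tubb3), 0 of 3 astrocyte markers and 1 of 3 oligodendrocyte markers (Mbp).

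Each genotype is represented by 1 deposited list with no values per library, so no replicate spread can be given and no difference between the lists was tested. The lists hold no expression value, so the loss of Mettl3 and the abundance of the chaperone transcripts could not be checked here. A gene's level below is that of its strongest peak in a list, on the log2 scale of IP over input as the authors deposited it, and a difference is the KO level minus the WT level.

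METTL3 is the catalytic subunit of the complex that places m6A on messenger RNA, most often near stop codons and in 3' untranslated regions (3' UTRs). Heat-shock proteins and chaperonins help other proteins fold: HSP70 binds exposed stretches of a chain in a cycle started by J-proteins (the Dnaj genes) and reset by exchange factors such as the BAG proteins, HSP90 matures signalling proteins, and the CCT ring encloses actin and tubulin. On stress the transcription factor HSF1 switches on many of these genes through heat-shock elements in their promoters, and m6A in the 5' UTR of inducible chaperone transcripts has been studied as a feature of their translation in stressed cells.

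The sequences below come from around the starts of these genes. Of the stretches printed, those of Bag2 and Hsph1 lie in a KO 5' UTR peak that overlaps no WT peak. Those of Hspd1, Hspe1 and Dnajb6 lie in no deposited 5' UTR peak. RefSeq promoter windows of build GRCm38.p6, from 250 bases before to 50 bases after a start, were found for 56 of the 71 genes, and the gene positions deposited with the lists overlapped the RefSeq positions for 71 of 71. The first set holds the core of the m6A consensus, searched on the sense strand as GGAC followed by any base other than G in the first 50 transcribed bases. It was found in 7 of the 56 genes (Bag2, Bag3, Dnaja1, Dnajc17, Dnajc7, Hspa2 and Hspa4l), against 17.9% of 27025 genes with a window. For 3 of them the core, in capitals, lies inside a deposited 5' UTR peak. The Bag2 stretch is chr1:33757701-33757730 on the minus strand, under a KO peak. The Bag3 stretch is chr7:128523603-128523632 on the plus strand, under a peak of both lists. The Dnajc17 stretch is chr2:119208759-119208788 on the minus strand, under a KO peak. That Dnajc17 peak spans 24893 bases, introns included, and overlaps a WT peak away from the stretch.
Bag2: gccactgctgcccgcggacgccgaGGACCc
Bag3: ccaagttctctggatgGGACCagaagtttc
Dnajc17: caattcaagtttGGACTagaaccatggcgg

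The second set shows heat-shock elements, searched on both strands as 3 alternating units, GAANNTTC followed after 2 further bases by GAA or the reverse complement of that run. Such an element was found in 4 of the 56 genes, against 0.662% of all genes with a window. The shorter GAANNTTC, which reads the same on both strands and is part of every longer element, was found in 10 of the 56 against 9.04% of all genes. The Hsph1 stretch is chr5:149636279-149636308 on the minus strand, the Hspd1 stretch chr1:55088050-55088079 on the minus strand, the Hspe1 stretch chr1:55088056-55088085 on the plus strand and the Dnajb6 stretch chr5:29735844-29735873 on the plus strand, with the element in capitals.
Hsph1: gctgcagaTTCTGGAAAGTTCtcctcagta
Hspd1: gccttccgGAAGGTTCTAGAAcggaccgtg
Hspe1: ccgttctaGAACCTTCCGGAAggccccgcg
Dnajb6: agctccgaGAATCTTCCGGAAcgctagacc
Hspd1 and Hspe1, which encode the 2 parts of the mitochondrial chaperonin, are divergent neighbours, and the stretches shown for them overlap in their shared promoter, read from opposite strands. The element begins 139 bases before the Hspd1 start and 84 bases before the Hspe1 start. In Hsph1 it begins at transcribed base 16 or 37, counted from either RefSeq start, and lies under that gene's KO 5' UTR peak. All 4 genes with this element had a 5' UTR peak in the KO list that overlapped no WT peak, against 8.84% of all genes. The count was chosen after the values were seen, and Hspd1 and Hspe1 share 1 promoter. The share among all genes with the element is not given here, and a link between element and peak was not tested. At an adjusted p of at most 0.001 Dnajb6, whose peak spans 13458 bases, was no longer among the 4. The Hspe1 KO peak ends at base 55089394 where a WT peak begins at the next base, 55089395. A match describes letters in these windows and shows no bound factor or methylated base.

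Across the 69 genes that both lists named, the median level was 1.09 in the KO list and 1.11 in the WT list, where all 12323 genes had medians of 1.08 in the KO list and 1.34 in the WT list. The strongest peak was lower in the KO list for 43 of the 69 (62.3%, 95% Wilson interval 50.5% to 72.8%), against 73.4% of all genes. The median difference was -0.06, with quartiles of -0.47 and 0.10 and a range of -1.23 to 1.04, while the median of all genes was -0.25. The levels differed by less than 0.15 in 34 of the 69 (49.3%), against 29.0% of all genes. Reading each gene by the mean of its peaks in place of the strongest gave 53 of 69 lower in the KO list (76.8%) against 77.2% of all genes, and a median difference of -0.09 against -0.17. With peaks of at most 1000 bases alone, 30 of 55 were lower in the KO list (54.5%), against 58.2% of all genes, and the medians were -0.02 and -0.05. The share of genes lower in the KO list thus came close to that of all genes under both readings.

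**Figure D1:**
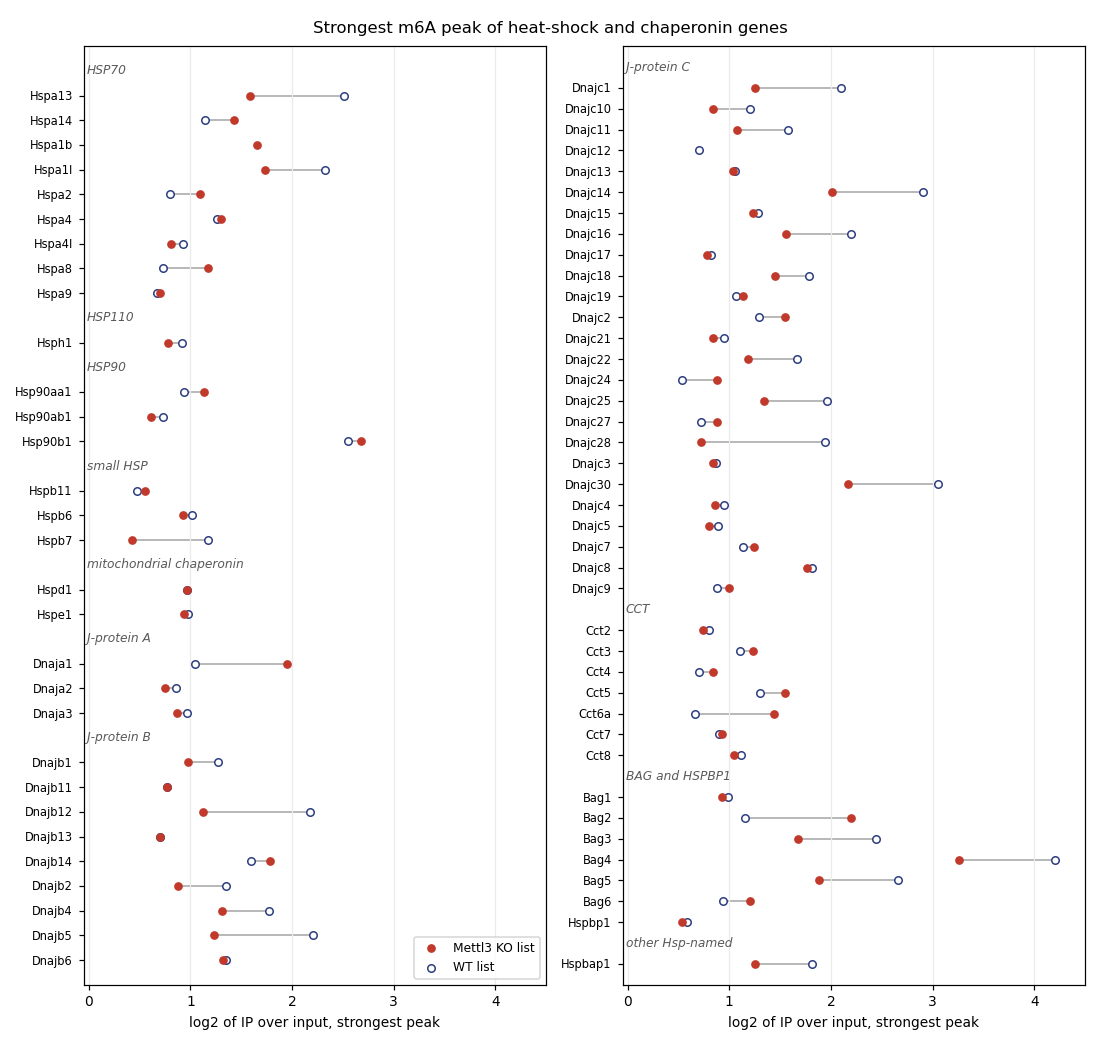
Level of the strongest m6A peak of 70 of the 71 heat-shock and chaperonin genes, as the deposited log2 of IP over input on the horizontal axis, grouped by role. Filled circles are the Mettl3 KO list and open circles the WT list, 1 value per list with no error bar, and Hspa1b and Dnajc12 have a single circle. The circles of 34 genes lie less than 0.15 apart, and the longest lines are those of Dnajc28 and Dnajb12, with the WT circle higher, and of Bag2, with the KO circle higher.

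Large differences were few. By 1 or more on the log2 scale, which is 2-fold, 2 of the 69 were lower in the KO list (Dnajc28 and Dnajb12), against 9.54% of all genes, and 1 was higher (Bag2), against 0.714% of all genes. At least 4-fold enrichment over input was reached by 5 of 70 genes in the KO list (Bag2, Bag4, Dnajc14, Dnajc30 and Hsp90b1), against 11.4% of all genes with a KO peak, and by 12 of 70 in the WT list, against 28.0% of all genes with a WT peak.

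The differences went with the level itself. Among the 29 genes whose mean of both levels was below 1, 17 were lower in the KO list and the median difference was -0.04, against -0.03 for all genes of that range. From 1 to 1.5 the count was 10 of 21 with a median of 0.04, against 74.6% and -0.25 for all genes. This range holds few of these genes, and it was not read again by the mean over peaks or with short peaks alone. From 1.5 to 2 the count was 9 of 11 with a median of -0.56, against 87.7% and -0.63. At 2 or more it was 7 of 8 with a median of -0.83, against 88.2% and -0.81. Genes enter these ranges by the same values that are compared, so the ranges are a description.

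**Figure D2:**
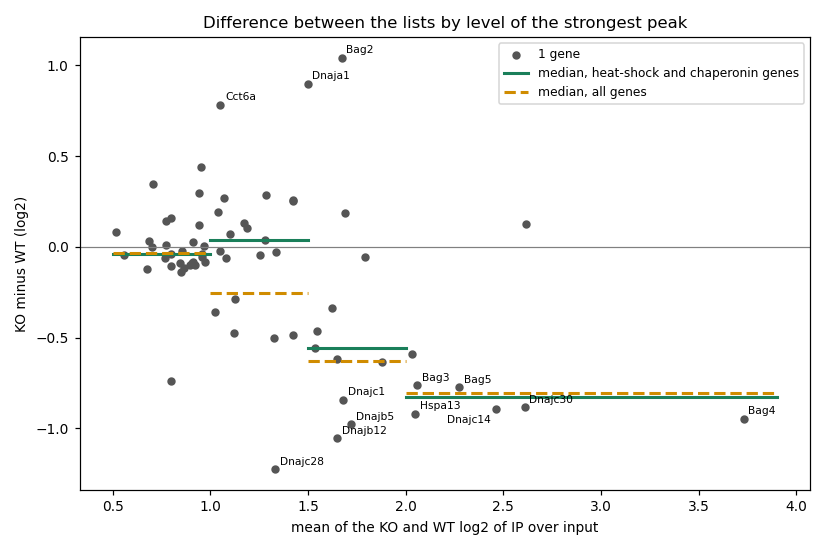
Difference between the lists, KO minus WT on the log2 scale, against the mean of the KO and WT levels for the 69 genes that have both, 1 point per gene. Solid lines are the medians of these genes and dashed lines those of all genes in 4 ranges of level. The medians lie farthest apart from 1 to 1.5, at 0.04 for 21 of these genes against -0.25.

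Among the HSP70 genes, the ATP-driven core of the system, 8 had a peak in both lists, 3 of them lower and 5 higher in the KO list, with a median difference of 0.04. Hspa1b, the stress-inducible cytosolic HSP70, was the 1 gene of all 71 with a peak in the KO list alone, against 5.03% of all genes. Its single peak, chr17:34957011-34958335 on the minus strand in the 3' UTR, had a level of 1.66 in the KO list, and no WT peak named the gene. Hspa1a, its near-identical neighbour, is named by no peak in either list used here, and reads of such copies can be assigned to one or the other. Hspa8, the constitutive cytosolic HSP70, had a level of 1.17 in the KO list and 0.73 in the WT list. These values come from different places, since the KO value is a 5' UTR peak of 125 bases, chr9:40801534-40801658, with an authors' deposited adjusted p of 0.00874 and the WT value is a 3' UTR peak. At that 3' UTR site the levels were 0.80 in the KO list and 0.73 in the WT list. Processed copies of Hspa8 elsewhere in the genome could share its reads.

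Hspa13, a microsomal HSP70 relative, showed the largest gap of the group, 1.59 in the KO list and 2.51 in the WT list, over 3' UTR peaks of 2518 bases in the KO list and 2668 bases in the WT list. The strongest of its peaks of at most 1000 bases had 0.47 in both lists, but at different places. The KO one is a coding-exon peak that overlaps no WT peak. At the 3' UTR place of the WT one the levels were 0.26 in the KO list and 0.47 in the WT list. Hspa1l, the HSP70 gene beside Hspa1b known mainly from testis, had 1.74 in the KO list and 2.33 in the WT list. Hspa14, an HSP70 that works at the ribosome, had 1.43 in the KO list and 1.15 in the WT list, from overlapping 3' UTR peaks of 1003 bases in the KO list and 953 bases in the WT list, so that a limit of 1000 bases removed the KO peak alone and turned the order. Hspa4, an exchange factor of the HSP110 branch, was almost level at 1.30 in the KO list and 1.26 in the WT list, and Hspa9, the mitochondrial HSP70, had 0.70 in the KO list and 0.67 in the WT list. The Hspa4 and Hspa9 values come from peaks at identical positions in both lists. Under the mean, which takes in the other peaks of each list, both orders turned.

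Hsph1, the inducible HSP110 exchange factor that dissolves aggregates with HSP70, had a level of 0.78 in the KO list and 0.92 in the WT list. These are overlapping 3' UTR peaks of 525 bases in the KO list and 3221 bases in the WT list. A limit of 1000 bases removed the WT peak alone and turned the order. The 3 HSP90 genes differed little between the lists. Hsp90aa1, the inducible cytosolic HSP90, had 1.13 in the KO list and 0.94 in the WT list, an order that turned under the mean over its peaks. Hsp90ab1, the constitutive form, had 0.61 in the KO list and 0.74 in the WT list, from overlapping peaks. Hsp90b1, the HSP90 of the endoplasmic reticulum (ER), carried its strongest peak in the 5' UTR at identical positions in both lists, chr10:86705307-86705506 on the minus strand. That peak had 2.68 in the KO list and 2.56 in the WT list, where most genes of this level were lower in the KO list. Under the mean over its peaks Hsp90b1 had 1.04 in the KO list and 1.12 in the WT list.

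Small heat-shock proteins hold unfolding proteins without ATP, and 3 genes of that name had peaks in both lists. Hspb7, known from heart and muscle, had 0.43 in the KO list and 1.17 in the WT list, from overlapping 5' UTR peaks of 250 bases in the KO list and 825 bases in the WT list. Hspb6 was nearly level at 0.93 in the KO list and 1.02 in the WT list, an order that turned under the mean over peaks. Hspb11, a part of the ciliary transport machinery that shares the name, had 0.56 in the KO list and 0.47 in the WT list. Hspb1, the main inducible small heat-shock gene, is named by no peak in either list used here.

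The mitochondrial chaperonin genes Hspd1 and Hspe1 were nearly level between the lists. Hspd1, which encodes the HSP60 barrel, had 0.97 in the KO list and 0.96 in the WT list from overlapping 3' UTR peaks, with the order turning under the mean over peaks. Hspe1, which encodes its HSP10 lid, had 0.93 in the KO list and 0.98 in the WT list. At identical positions in the 3' UTR Hspe1 had 0.93 in the KO list and 0.89 in the WT list. The Hspe1 maxima lie at different places, since the WT maximum is an intronic peak of 150 bases with an authors' deposited adjusted p of 0.0105, and the order turned among peaks with an adjusted p of at most 0.001.

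J-proteins recruit clients and start the HSP70 cycle, and their 3 classes made up 36 of the 69 genes. In class A, 2 of 3 genes were lower in the KO list, against 73.4% of all genes. Dnaja1, the main cytosolic class A protein, had the second highest difference of all after Bag2, with 1.95 in the KO list and 1.05 in the WT list. The KO value is a 500-base peak at the end of the 3' UTR, chr4:40736641-40737140, which overlaps a WT peak of 1.02, so at this place too the KO peak was the stronger. Its 4 upstream peaks were each slightly weaker in the KO list, from 0.47 to 0.91, against 0.50 to 1.05 in the WT list. Dnaja2 had 0.75 in the KO list and 0.85 in the WT list, and Dnaja3, the mitochondrial member, 0.87 in the KO list and 0.97 in the WT list.

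In class B, 6 of 9 genes were lower in the KO list and the median difference was -0.29, against 73.4% and -0.25 for all genes. Dnajb12, an ER membrane J-protein that feeds misfolded proteins to degradation, had 1.12 in the KO list and 2.18 in the WT list. The difference of -1.06 comes from overlapping 3' UTR peaks of 7530 bases in the KO list and 4201 bases in the WT list, and peaks of at most 1000 bases gave 0.97 in the KO list and 1.10 in the WT list. Its relative Dnajb14 had 1.78 in the KO list and 1.60 in the WT list, turning under the mean over peaks. Dnajb5 had 1.23 in the KO list and 2.21 in the WT list, and Dnajb4 had 1.31 in the KO list and 1.78 in the WT list. Both are close relatives of Dnajb1, the inducible HSP40, which had 0.98 in the KO list and 1.27 in the WT list. For Dnajb1 the WT value belongs to 1 peak of 3082 bases from the gene start into the 3' UTR, while the KO list divides that stretch into a 5' UTR peak of 0.84 and a longer peak of 0.82.

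Class C holds J-proteins of varied location and partners, and 18 of its 24 genes with both values were lower in the KO list, a share near the 73.4% of all genes, with a median difference of -0.09. Dnajc30, a mitochondrial protein, had 2.17 in the KO list and 3.05 in the WT list, and Dnajc14, an ER membrane protein, had 2.01 in the KO list and 2.91 in the WT list. Dnajc16 had 1.56 in the KO list and 2.20 in the WT list, and Dnajc1, another ER membrane protein, 1.26 in the KO list and 2.10 in the WT list. The Dnajc1 maxima do not overlap, the KO one being a peak of 68204 bases and the WT one a peak of 1025 bases. Each overlaps a peak of the other list. At the place of the WT maximum the levels were 0.73 in the KO list and 2.10 in the WT list. At that of the KO maximum they were 1.26 in the KO list and 1.91 in the WT list. The order turned for Dnajc30 and Dnajc16 under the mean over peaks and for Dnajc14 among peaks of at most 1000 bases. Dnajc28 had the lowest difference of the 69 genes, -1.23, with 1 coding-exon peak per list, 0.72 in the KO list and 1.94 in the WT list, and these overlap. The KO peak was weak, with an authors' deposited adjusted p of 0.0129. Dnajc12, a co-chaperone of aromatic amino acid hydroxylases, was the 1 gene with a peak in the WT list alone, against 7.44% of all genes. That peak was a 5' UTR peak of 100 bases with a level of 0.71 and an authors' deposited adjusted p of 0.00668.

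The CCT genes encode subunits of the cytosolic ring, and 2 of the 7 were lower and 5 higher in the KO list, with a median difference of 0.13. Cct5 had 1.55 in the KO list and 1.30 in the WT list from 3' UTR peaks of 1251 bases, turning both under the mean over peaks and among shorter peaks. Cct3 had 1.24 in the KO list and 1.11 in the WT list, and Cct8 had 1.05 in the KO list and 1.11 in the WT list, both turning under the mean. Cct6a had 1.44 in the KO list and 0.66 in the WT list, but the KO value is an intronic peak of 135 bases that overlaps no WT peak, and at the last coding peak the levels were 0.58 in the KO list and 0.66 in the WT list. The order of the lists was thus the same under the mean over peaks for 3 of the 7 subunits, Cct2, Cct4 and Cct6a.

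BAG proteins release clients from HSP70, and 5 of 7 genes of this group, Hspbp1 included, were lower in the KO list, 71.4% against the 73.4% of all genes. Bag4, which also binds death receptors of the TNF family, had the highest level of all 71 genes in each list, 3.26 in the KO list and 4.20 in the WT list, from 3' UTR peaks of 8527 bases in the KO list and 8752 bases in the WT list. Bag3, the stress-inducible member that directs aggregates to autophagy, had 1.68 in the KO list and 2.44 in the WT list. Bag5 had 1.89 in the KO list and 2.66 in the WT list. Bag2, which blocks the ubiquitin ligase CHIP, had the highest difference of the 69 genes, 1.04, with 2.19 in the KO list and 1.15 in the WT list. The KO value of Bag2 is a 5' UTR peak of 375 bases, chr1:33757412-33757786 on the minus strand, with an authors' deposited adjusted p of 3.05e-08. It contains the GGACC core printed above, and no WT peak overlaps it. The WT value is a 3' UTR peak, and at the 2 shared 3' UTR sites Bag2 was lower in the KO list, with 0.69 in the KO list against 1.15 in the WT list at one. At the other it had 0.75 in the KO list against 0.94 in the WT list. Under the mean over peaks its difference was 0.17. Hspbap1, an HSPB1-associated protein outside these groups, had 1.26 in the KO list and 1.82 in the WT list.

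The strongest peaks of a gene did not always lie at the same place in both lists. They overlapped between the lists in 54 of the 69 genes, and 34 of these were lower in the KO list. In the other 15 genes the maxima lay apart, and 6 of these were higher in the KO list, among them Bag2, Cct6a and Hspa8. The same split over all genes is not given here. Pairs of peaks that overlapped one to one, 125 pairs in 59 genes, gave 78 lower in the KO list and a median difference of -0.06, against 68.1% lower and -0.10 for all 21098 such pairs. Pairs with identical positions numbered 17 in 16 genes, with 9 lower in the KO list and a median of -0.01, against 62.0% and -0.06 for all genes. Among the one-to-one pairs in the 3' UTR of both lists, 42 of 77 were lower in the KO list (54.5%), with a median of -0.05, against 66.2% and -0.09 for all genes. In coding exons it was 24 of 33 (72.7%) with a median of -0.07, near the 72.3% and -0.09 of all genes. In the 5' UTR it was 7 of 8 with a median of -0.21, against 72.7% and -0.14 for all genes, the exception being Hsp90b1.

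By region, most peaks of these genes lay in the 3' UTR, 144 in the KO list (55.2%) and 130 in the WT list (59.4%), where all peaks had 51.4% there in the KO list and 53.0% in the WT list. Coding exons held 76 in the KO list (29.1%) and 60 in the WT list (27.4%), against 25.1% of all peaks in the KO list and 21.1% in the WT list. Introns held 17 in the KO list (6.51%) and 14 in the WT list (6.39%), against 4.89% of all peaks in the KO list and 5.58% in the WT list. A peak ended within 10 bases of the annotated 3' end of the gene in 43 of 70 genes in each list, 61.4%, against 62.3% of all genes in the KO list and 59.6% in the WT list. The genes had 3.73 peaks each in the KO list and 3.13 in the WT list, where all genes had 3.15 in the KO list and 2.74 in the WT list. Of their KO peaks 71.3% overlapped a WT peak, against 72.9% of all KO peaks, and of their WT peaks 85.4% overlapped a KO peak, against 77.2% of all WT peaks.

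**Figure D3:**
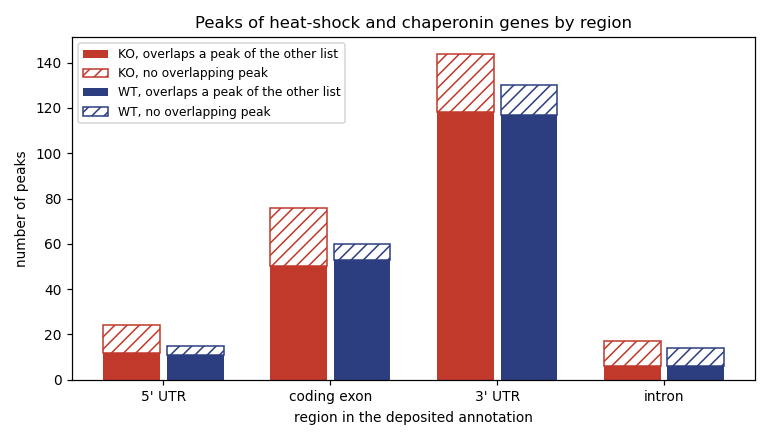
Number of peaks of the 71 genes in each annotated region, red for the Mettl3 KO list and blue for the WT list. The filled part of a bar counts peaks that overlap a peak of the other list on the same strand and the hatched part those that do not. In the 5' UTR the hatched part is 12 of 24 KO peaks and 4 of 15 WT peaks.

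In the 5' UTR the lists shared fewer of the KO peaks than of the WT peaks. Heat-shock and chaperonin genes had 24 peaks there in the KO list (9.20% of their peaks) and 15 in the WT list (6.85%), both below the 11.9% of all peaks in each list. Of the KO peaks 12 of 24 overlapped no WT peak (50.0%), against 27.0% of all KO 5' UTR peaks, and of the WT peaks 4 of 15 overlapped no KO peak (26.7%), against 22.3% of all WT 5' UTR peaks. Counted over genes, 12 of the 71 had such a KO peak (16.9%), against 8.84% of all genes, and 4 had such a WT peak (Bag4, Bag6, Dnajc12 and Hspa2), against 6.51% of all genes.

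The 12 genes include the inducible chaperones Hsp90aa1, Hspd1, Hspe1 and Hsph1, while the inducible genes Bag3, Dnajb1 and Hspa1b are not among them. Hspe1 had 0.80, Hspd1 0.68, Hsp90aa1 0.66 and Hsph1 0.47 at this KO peak. Hsp90aa1 carried it as a peak of 125 bases at chr12:110695705-110695829 on the minus strand, with an authors' deposited adjusted p of 3.99e-65. Hspd1 carried it at chr1:55087802-55087926, 125 bases on the minus strand, with an authors' adjusted p of 1.61e-15. For Hsph1, at chr5:149636186-149636376 on the minus strand, the authors' adjusted p was 1.66e-05. The Hspe1 peak spans 1088 bases, chr1:55088307-55089394, and touches the WT intronic peak without overlap, with an authors' adjusted p of 1.89e-122. The remaining 8 genes were Bag2 at 2.19, Hspa8 at 1.17, Dnajb2 at 0.74, Dnajc4 at 0.71, Bag5 at 0.66, Dnajb11 at 0.60, Dnajb6 at 0.44 and Dnaja3 at 0.34. No level in the WT list can be set beside these peaks, because a place without a listed peak has no value.

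The count depends on the threshold for a listed peak. Over all listed peaks it was 12 of the 71 genes (16.9%), against 8.84% of all genes. With peaks of an adjusted p of at most 0.001 in both lists, it fell to 6 of the 71, against 6.09% of all genes. Those 6 were Bag2, Dnajb11, Hsp90aa1, Hspd1, Hspe1 and Hsph1. With the same threshold 3 of the 71 genes had such a WT peak, Bag4, Bag6 and Hspb7, against 5.60% of all genes. Dnajb1 stands outside the 12, since the long WT peak covers the place of its KO 5' UTR peak. That KO peak, with 0.84 and an authors' deposited adjusted p of 8.84e-24, has no counterpart of its own. Bag3 had a 5' UTR peak at identical positions in both lists, 0.61 in the KO list and 0.71 in the WT list. Hspa1b and Hsp90ab1 had no 5' UTR peak in either list.

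**Figure D4:**
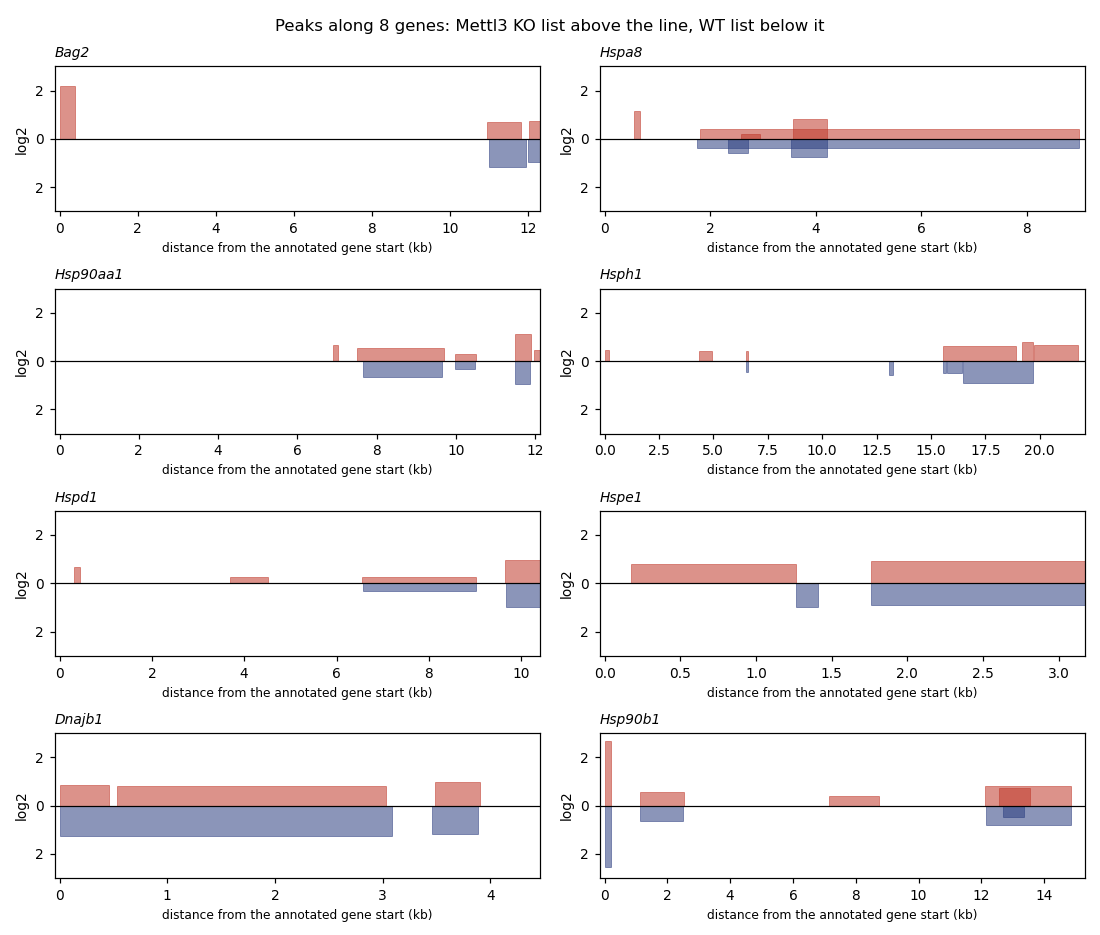
Peaks along 8 genes, with distance from the annotated gene start in kilobases on the horizontal axis and the deposited log2 of IP over input as box height, the Mettl3 KO list above the line and the WT list below it. Each box spans 1 peak, introns included. In Bag2, Hspa8, Hsp90aa1, Hsph1, Hspd1 and Hspe1 the first KO box has no WT box under it, in Dnajb1 it lies over a longer WT box, and in Hsp90b1 both lists hold the same box at the start, at 2.68 in the KO list and 2.56 in the WT list.

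The other genes of the chaperone system, 27 listed by function and outside the name rule, had a peak in both lists in 27 of 27 cases. Of these 19 were lower and 8 higher in the KO list, a share near the 73.4% of all genes, with a median difference of -0.06, against -0.25 for all genes. The 3 factors of the heat-shock response were each lower in the KO list, as were 73.4% of all genes. Hsf1, the master regulator, had 0.91 in the KO list and 1.24 in the WT list, Hsf2 had 1.06 in the KO list and 1.11 in the WT list, and Hsbp1, an inhibitor of HSF1, had 0.89 in the KO list and 0.99 in the WT list. The Hsf2 order turned under the mean over peaks. Tcp1, the CCT subunit that the name rule does not reach, had 0.97 in the KO list and 1.01 in the WT list. Prefoldin, which hands chains to the CCT ring, had 4 of 6 genes lower in the KO list, against 73.4% of all genes. The 2 listed CCT co-factors were divided.

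Among co-chaperones of HSP90, 7 of 11 genes were lower in the KO list, against 73.4% of all genes. Unc45a, which folds myosin with HSP90, had 1.89 in the KO list and 2.37 in the WT list, and Cdc37, which loads kinases onto HSP90, had 1.32 in the KO list and 0.87 in the WT list. Of the 4 HSP70 co-chaperones 3 were lower in the KO list, against 73.4% of all genes. Grpel1, the mitochondrial HSP70 exchange factor, had 1.68 in the KO list and 2.15 in the WT list. Its relative Grpel2 had 1.08 in the KO list and 1.78 in the WT list.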

How the data were processed

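Poly(A) RNA of BV2 cells, KO and WT, was split into m6A IP and input, 3 libraries each. The 2 peak lists, 1 per genotype, are the authors' deposited files. Per the file headers each peak has a p-value with its adjusted form, a log2 fold (IP over input), and the region and gene it was assigned to. Tools named without version or role in the submitters' processing notes are edgeR, StringTie, HOMER, HISAT2, FastQC and fastp. Which program called the peaks, on which build and whether on pooled replicates is not given in the sources used here. Depth per library is unknown, so no precision can be given for a level, and differences in IP efficiency or scaling between the lists can shift all levels of one of them.

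Deposited starts count from 0 and were turned to 1-based positions. Overlap was at least 1 base on the same strand (bedtools 2.31.1). A gene's level is its strongest peak. Shares have 95% Wilson intervals that cover counting only. A peak's span includes introns. Genes named are, by role, the 4 with the strongest peak in either list, those with a peak in 1 list only, those differing by 1 or more, and a list of stress-inducible genes. Genes named beyond this rule, such as those with a 5' UTR peak lacking a partner, were picked with their values in view. The members and lists were chosen with earlier results of these data known. Alternatives were an adjusted p of at most 0.001, at least 4-fold enrichment, peaks of at most 1000 bases, the mean over peaks, a reciprocal overlap of 50%, differences centred on all genes and, chosen after seeing the data, strand ignored or a stricter p for 5' UTR peaks and leaving out 4 genes. For 1 of the 71 genes no value of its own is given here. No p-value was computed. The software was matplotlib 3.10.9, SciPy 1.17.1, numpy 2.4.6 and pandas 2.3.3 under Python 3.11.15, and the steps were tested on simulated data.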

Additional observations from a re-analysis of the deposited data

How the results depend on the processing

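No paired analysis was possible because the lists carry no replicate values, and no replicate could be left out for the same reason. Among genes with a strongest peak of at least 4-fold in both lists, 3 of 4 were lower in the KO list, with a median difference of -0.89 (all genes 83.5% and -0.65). Of the 12 genes with such a WT peak 8 had it in the WT list alone. Over all genes 3738 had such a WT peak and 1262 had one in both lists. At an adjusted p of at most 0.001, 2 genes had a peak in the WT list alone, with no share of all genes given here. At that threshold 6 of the 71 had a 5' UTR peak in the KO list that overlapped no WT peak (all genes 6.09%). Centred on the median of all genes, 22 of 69 were lower in the KO list (31.9%, all genes 50.0%) and the median difference was 0.19, which has the opposite sign. With a reciprocal overlap of 50%, 47.9% of the KO peaks and 57.1% of the WT peaks of these genes had a partner. The shares of all peaks at that overlap are not given here. At 4-fold or more the 5 KO peaks lay 40.0% in the 3' UTR and 60.0% in the 5' UTR, with 0.0% in coding exons and introns. The 12 WT peaks lay 83.3% in the 3' UTR and 16.7% in the 5' UTR, with 0.0% in coding exons and introns. Region shares of all peaks at this threshold are not given here. The share lower in the KO list was 76.8% with the mean over peaks (53 of 69, all genes 77.2%), 54.5% with peaks of at most 1000 bases (30 of 55, all genes 58.2%), 59.7% at an adjusted p of at most 0.001 (40 of 67, all genes 74.0%) and 61.5% without 4 genes that fit the rule by name alone (40 of 65, all genes 73.4%). Under the first 2 of these the distance from all genes was nearly gone. The order of the lists turned for 20 genes under the mean, 8 among short peaks and 1 at the stricter p. Unknown depth means that a missing peak sets no bound on a level.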
